A study of Mus musculus with 17 samples.

Results

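The genes described here encode the subunits of the proteasome and its regulators. They are all entries of the deposited gene table whose symbol is Psm, a letter from a to f and a number, and there were 44 of them among 23282 genes. By role they were 7 alpha subunits and 7 beta subunits of the core particle, the testis alpha subunit *Psma8*, 3 immune beta subunits (*Psmb8*, *Psmb9* and *Psmb10*), the thymus beta subunit *Psmb11*, 6 ATPases and 11 further subunits of the regulatory particle, 3 assembly chaperones (*Psmd5*, *Psmd9* and *Psmd10*), 4 activators and the inhibitor *Psmf1*. RNA was measured in 17 libraries of cells that had been sorted from mouse testes with Hoechst dye. The stages were SPG (spermatogonia), PreL (spermatocytes before leptotene) and LZ (spermatocytes in leptotene and zygotene). The mice were C57BL/6 by the labels and C57BL/6J by the methods of the study, and their age is not given in the sources used here. Wildtype (WT) mice gave 3 SPG, 3 PreL and 2 LZ libraries. The knockouts, labelled Stra8-cre_Nat10_KO and called *Nat10*-SKO in the study, gave 3 libraries of each stage. They carry 1 floxed and 1 null allele of *Nat10* with a Cre knocked in at Stra8, which deletes exons 4 and 5 of *Nat10* in germ cells as they approach meiosis. Nothing in the labels says that libraries of a group came from separate mice, so p-values measure the spread between libraries only.

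The proteasome degrades proteins that carry chains of ubiquitin. Its core is a barrel of stacked alpha and beta rings with the protease sites inside, on the beta subunits *Psmb5*, *Psmb6* and *Psmb7*. A regulatory particle caps the barrel: its ring of ATPases (Psmc genes) unfolds the substrate and threads it in, and its other subunits (Psmd genes) bind ubiquitin and cut it off. Cells can exchange parts. Interferon induces *Psmb8*, *Psmb9* and *Psmb10*, which replace the constitutive protease subunits, and the activator *Psme1* with *Psme2*. Male germ cells replace the alpha subunit *Psma7* by its testis paralog *Psma8* during meiosis, and *Psme4* (PA200) is an activator that acts with it in testis. Mice without *Psma8* are infertile.

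Values are given per library as normalised values, which are the ERCC-calibrated counts of the authors divided by a size factor per library, in the order of the replicate numbers. In tests, a gene was called where its adjusted p was under 0.05 and its absolute log2 fold change was above 1. Per kilobase of transcript, the core subunits led in WT SPG. *Psmb2* had 23034 ± 2529 normalised units per kilobase (SD, n = 3), followed by *Psmb6* with 15985 ± 1575 and *Psmb1* with 14108 ± 790.2. Regulatory particle genes lay below these 3, such as the ATPase gene *Psmc1* with 5447 ± 399 and the ubiquitin receptor gene *Psmd4* with 2583 ± 181. Some core subunits, such as *Psma2* and *Psmb5*, lay below *Psmc1*. The lowest were *Psmb8* with 153 ± 50.7 and *Psmb9* with 16.3 ± 13.0. The 44 genes together took 1.20% to 1.39% of all reads in WT SPG, 1.05% to 1.32% in WT PreL, 1.10% to 1.32% in WT LZ and 0.699% to 0.941% in SKO LZ.

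*Nat10* was lower in every SKO library than in every WT library of its stage, with values of 548 and 726 in WT LZ and 246, 185 and 256 in SKO LZ. The recovered reads numbered 5812380 to 7609420 per library in SKO LZ and 9885136 to 13820953 in the other groups. Markers of other cell types differed between the genotypes. The 8 late spermatocyte markers, among them *Ldhc* and *Pgk2*, summed to 68572 to 158804 normalised units in WT LZ and 2302 to 2989 in SKO LZ, where *Pgk2* had at most 3 reads in each library. They summed to 7656 to 24671 in WT PreL and 1588 to 1893 in SKO PreL. The 8 spermatid markers, among them *Prm1* and *Tnp1*, were above 2253 in every WT library and at most 295 in every SKO library. The 8 macrophage and antigen presenting markers summed to 387 to 509 in WT SPG and 2813 to 3677 in SKO SPG. The 6 Leydig markers were called higher in SKO in 4 genes in SPG, 5 in PreL and 4 in LZ. Of the 8 spermatogonia and 9 early meiotic markers, 1 each was called lower in LZ and 3 and 0 higher. Each of these genes had over 3 reads in at least 1 library of every group. In LZ the spermatogonia markers summed to 6767 to 10833 in WT and 16297.5 to 18841 in SKO. The early meiotic sums overlapped in LZ, with 77093 to 112082 in WT and 94757 to 130857 in SKO. Early meiotic markers summed to 51069 to 52677 in WT SPG and 75457 to 79446 in SKO SPG, where 6 of the 9 were higher by the adjusted p, and to 79661 to 92515 in WT PreL and 104487 to 166067 in SKO PreL, where 2 were called higher. Spermatogonia markers had 0 genes called in SPG and 1 called higher in PreL. Sertoli markers had 1, 3 and 0 genes called higher in SPG, PreL and LZ. Peritubular markers, with 4, 3 and 3 of 6 tested, had 2 called higher in SPG and 1 called lower in both other stages. T and NK markers, with 5, 3 and 2 of 5 tested, had 1, 1 and 0 called higher. Only 2, 1 and 1 of 5 endothelial markers were tested in SPG, PreL and LZ, and 0 were called. Their sums overlapped in SPG and LZ, and were 9.99 to 28.5 in WT PreL and 73.1 to 128 in SKO PreL. Over all genes tested, 2.07% were called lower and 3.95% higher in SPG, 5.83% and 5.34% in PreL and 25.8% and 13.4% in LZ. Fewer cells of a type and less RNA per cell cannot be told apart in these data. The part of these markers in the results below was not tested.

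**Figure D1:**
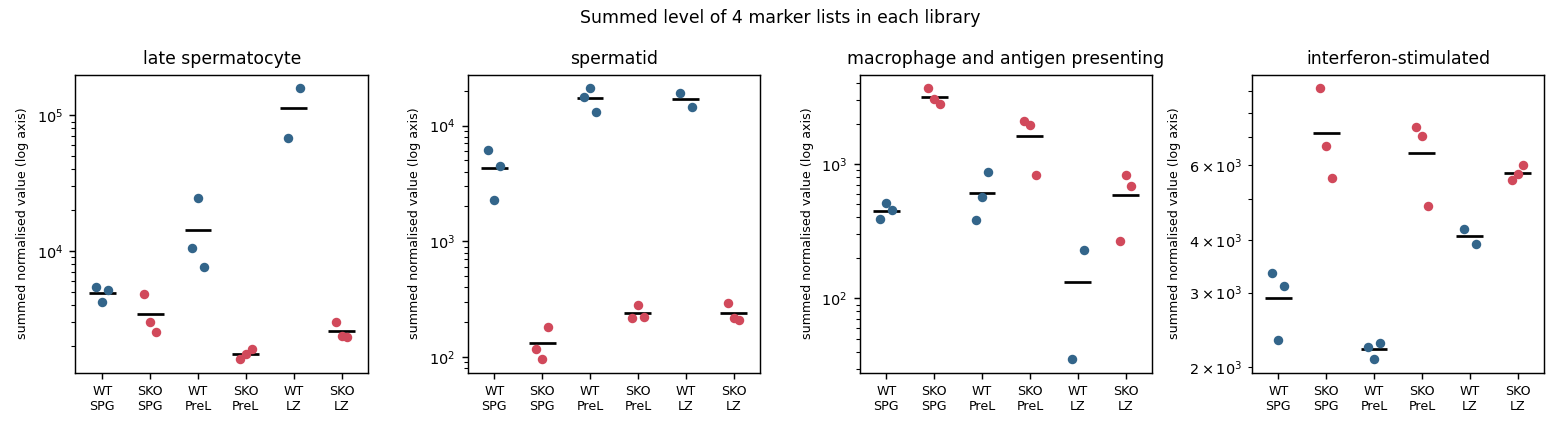
Summed normalised value of 4 marker lists (vertical axes, log scale) in each of the 17 libraries (points), by genotype and stage, with group means as lines. The late spermatocyte sum was 68572 to 158804 in WT LZ and 2302 to 2989 in SKO LZ, and the spermatid sum was lower in every SKO library than in every WT library.

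In LZ, 9 of the 44 proteasome genes were lower in SKO than in WT and 1 was higher. These are 20.5% and 2.27% of the 44, beside 25.8% called lower and 13.4% called higher of the 13724 genes tested in this comparison. The median log2 fold change of the 44 genes was -0.14, beside -0.13 over all genes tested. The calls were uneven over the parts of the particle. None of the 7 alpha and 7 beta core subunits was called, and their medians were 0.12 and -0.10. Among the 6 ATPases 4 were called lower, with a median of -1.19, and among the 11 other regulatory subunits 2 were, with a median of -0.64. The testis subunit *Psma8*, the activator *Psme4* and the inhibitor *Psmf1* made up the rest of the genes called lower. By the adjusted p alone 15 were lower and 5 higher in LZ, which is 34.1% and 11.4% of 44, beside 31.1% and 19.8% of all genes. In SPG 0 and in PreL 2 of the 44 were called between the genotypes.

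**Figure D2:**
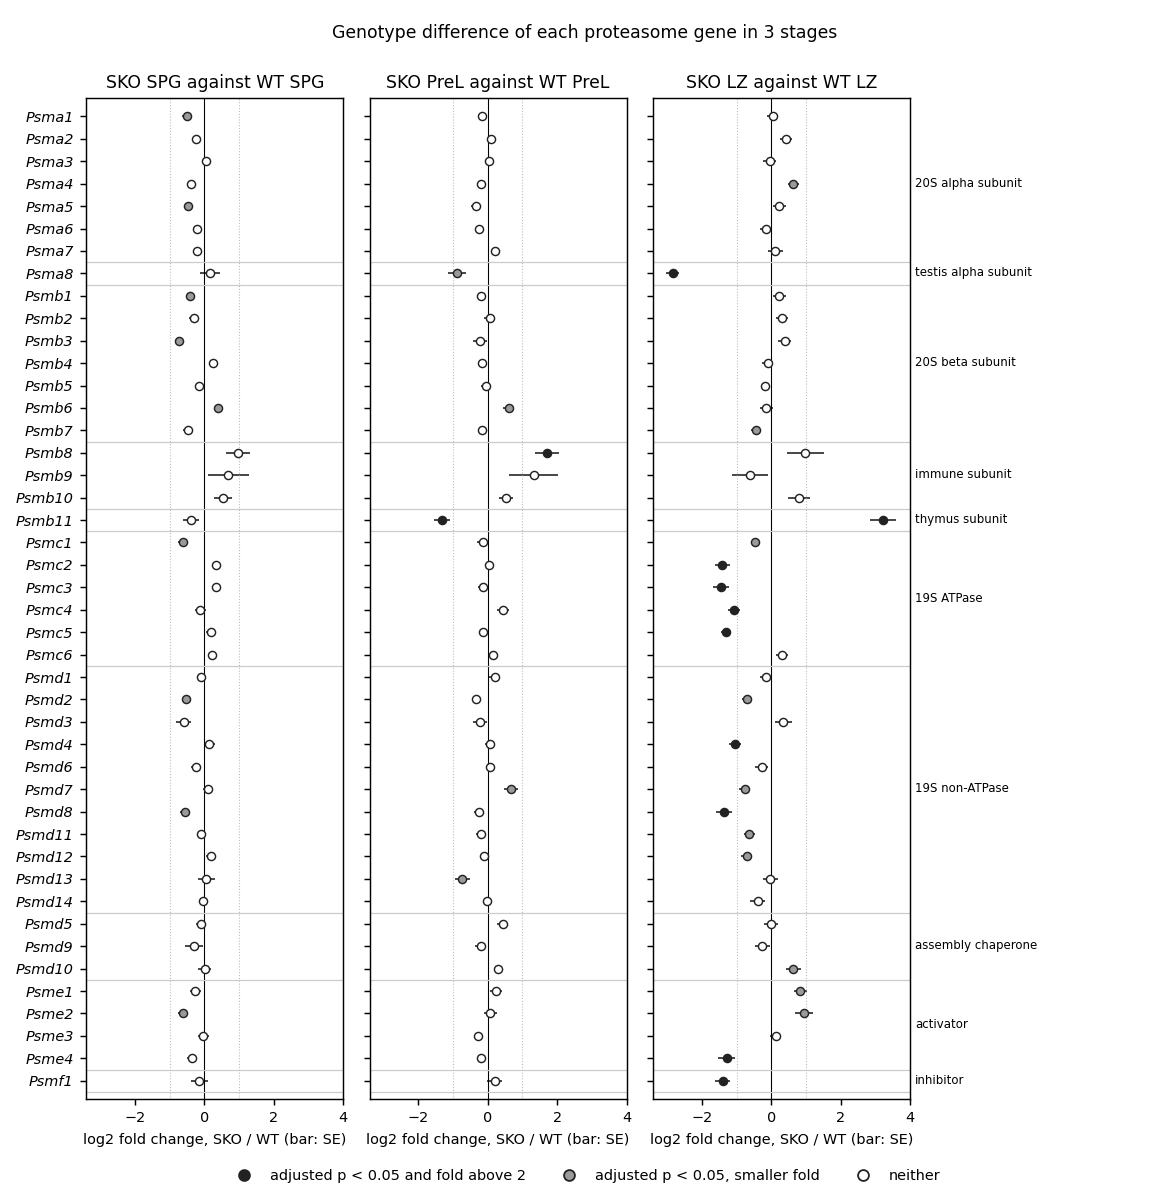
Log2 fold change of SKO over WT (horizontal axis, bars are standard errors) for each of the 44 proteasome genes, grouped by role, in SPG, PreL and LZ. Black points passed the adjusted p and the fold threshold, grey points the adjusted p alone. In LZ the black points are 9 genes below 0, with *Psma8* at -2.84, and *Psmb11* at 3.23.

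Gene length moved with the LZ difference. Over all genes tested, the median log2 fold change was -0.68 in the fifth of genes with the shortest exons and 0.13 in the fifth with the longest, and the proteasome genes had a median exon length of 2884.5 bases. With trends of length and GC content removed, 5 proteasome genes were called lower (*Psma8*, *Psmc2*, *Psmd8*, *Psme4* and *Psmf1*) and 8 higher (*Psma5*, *Psmb2*, *Psmb5*, *Psmb10*, *Psmb11*, *Psmd10*, *Psme1* and *Psme2*), beside 23.4% and 17% of all genes. The medians were then 0.45 for alpha subunits, 0.47 for beta subunits, -0.52 for ATPases and -0.33 for the other regulatory subunits.

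*Psma8*, the alpha subunit that replaces *Psma7* in spermatocytes, had the largest decrease. In SPG its normalised values were 1040.0, 509 and 789 in WT SPG and 1099, 620.2 and 906 in SKO SPG. In PreL they were 1928, 2269 and 1083 in WT PreL and 964, 994 and 738 in SKO PreL, and in LZ 6585 and 8434 in WT LZ and 918, 1151 and 1086 in SKO LZ. The genotypes overlapped in SPG and did not overlap in PreL or LZ. The log2 fold change of SKO over WT was 0.17 (SE 0.28, adjusted p = 0.76) in SPG, -0.90 (SE 0.26, adjusted p = 0.0418) in PreL and -2.84 (SE 0.19, adjusted p = 5.19e-05) in LZ, a 7.14-fold difference of the LZ means. In WT, *Psma8* rose from PreL to LZ by 2.001 (SE 0.30, adjusted p = 0.00274) on the log2 scale, and in SKO the same step was 0.20 (SE 0.15, adjusted p = 0.332). The difference of the genotype effects between LZ and PreL was -1.91 (SE 0.41, adjusted p = 0.00124). The PreL difference of *Psma8* missed the adjusted p in 7 of 17 alternatives, which were no rescaling (-0.18, adjusted p = 0.614), no filter and leaving out WT PreL replicate 1 or 2 or any SKO PreL library, and without WT PreL replicate 4 it was called (-1.22). WT LZ replicate 3, which had the higher sum of late spermatocyte markers, also had the higher *Psma8* value. Of the other genes called lower in LZ, *Psmc2*, *Psmc3*, *Psmc5*, *Psmd4*, *Psmd8*, *Psme4* and *Psmf1* were also higher in that replicate. *Psmc4* was lower in it. What part late spermatocytes had in these differences was not tested.

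*Psma7*, the paralog in the somatic particle, moved less. Its values were 12026, 11274 and 12816 in WT SPG, 8769, 8491 and 7165 in WT PreL and 8599 and 5162 in WT LZ. In SKO they were 9886, 11321 and 10539 in SKO SPG, 9834, 9446 and 8723 in SKO PreL and 7065, 7513 and 7329.7 in SKO LZ. The 2 WT LZ libraries lay on either side of the 3 SKO LZ libraries, and the log2 fold change in LZ was 0.12 (SE 0.22, adjusted p = 0.682). Per kilobase of transcript, *Psma8* took 3.35% ± 1.05 of the sum of *Psma7* and *Psma8* in WT SPG (SD, n = 3), 10.3% ± 2.55 in WT PreL (n = 3) and 38.1% ± 12.5 in WT LZ (n = 2). The same share was 4.33% ± 1.40 in SKO SPG, 4.93% ± 0.514 in SKO PreL and 7.20% ± 0.571 in SKO LZ (SD, n = 3 each). In LZ the WT libraries spanned 29.3% to 46.9% and the SKO libraries 6.56% to 7.64%, so the groups did not overlap. With exon union length in place of the principal transcript the LZ means were 57.7% and 15.0%. The exact permutation test (two-sided) gave p = 0.1 in PreL and in LZ, the smallest that these numbers of libraries allow, and p = 0.5 in SPG, or 0.12, 0.12 and 0.5 with Benjamini-Hochberg adjustment over the 6 share tests.

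**Figure D3:**
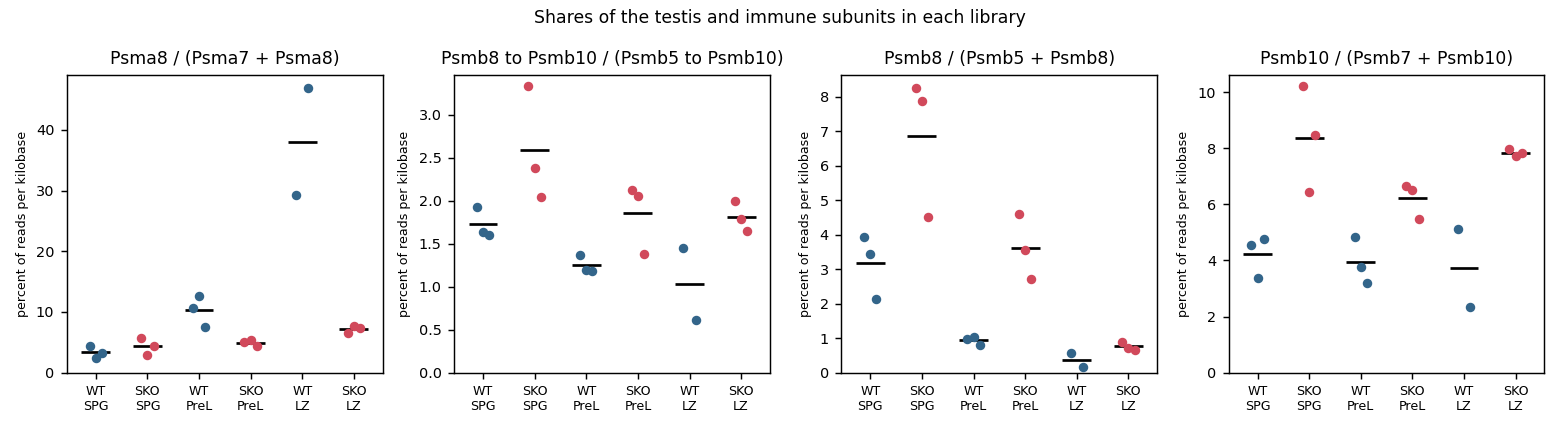
Share of the testis and immune subunits in each library (points, percent of reads per kilobase of the genes named above each panel), with group means as lines. *Psma8* reached 29.3% to 46.9% in WT LZ and 6.56% to 7.64% in SKO LZ, and the immune share of the catalytic subunits lay at or below 3.33% in all libraries.

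The ATPases of the regulatory particle form a ring of 6 different proteins, yet their genes moved differently in LZ. *Psmc2* had 6955 and 9927 in WT LZ and 2721, 3677 and 3132 in SKO LZ. *Psmc3* had 10347 and 16380.2 in WT LZ and 4901, 4941 and 4642 in SKO LZ, the widest gap between the WT replicates among the 6. *Psmc4* had 4469 and 4282 in WT LZ and 1858, 2416 and 2063 in SKO LZ. In each of these 3 genes every SKO library lay below every WT library, and so it did for *Psmc5*, with 4863 and 5341 in WT LZ and 2169, 2071 and 2021 in SKO LZ. The log2 fold changes were -1.41 (SE 0.21, adjusted p = 0.00128) for *Psmc2*, -1.45 (SE 0.22, adjusted p = 0.00131) for *Psmc3*, -1.07 (SE 0.16, adjusted p = 0.00132) for *Psmc4* and -1.30 (SE 0.15, adjusted p = 0.000327) for *Psmc5*. *Psmc1*, with 7583 and 7402 in WT LZ and 5623, 5492 and 5464 in SKO LZ, passed the adjusted p but not the fold threshold, at -0.45 (SE 0.14, adjusted p = 0.0302). Without SKO LZ replicate 1, *Psmc4* was at -0.98 and not called. *Psmc6* was the exception in direction, with 5676 and 6468 in WT LZ, 6803, 8376 and 7716 in SKO LZ and a log2 fold change of 0.31 (SE 0.17, adjusted p = 0.151). With length and GC trends removed, *Psmc3*, *Psmc4* and *Psmc5* were no longer past the fold threshold, at -0.998, -0.55 and -0.50, and *Psmc1* turned to 0.07. The exons of *Psmc3* overlap those of *Slc39a13*, and exons of 12 of the 44 genes overlap another gene, so that reads of such pairs may not be told apart.

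Before LZ the same genes did not share a direction. In SPG, *Psmc1* had 8790.2, 7978 and 9228 in WT SPG and 4847, 6380.1 and 5951 in SKO SPG, and *Psmc2* had 5934, 5875 and 5820.5 in WT SPG and 6761, 7794 and 8034 in SKO SPG. *Psmc1* thus lay lower in every SKO SPG library at -0.62 (SE 0.13, adjusted p = 0.00876), and *Psmc2* lay higher in every one at 0.34 (SE 0.12, adjusted p = 0.0786), which missed the threshold. *Psmc3* had 7229.5, 6069.5 and 7195 in WT SPG and 8602, 9129 and 8258 in SKO SPG. *Psmc4* had 4464, 3167 and 4009.7 in WT SPG and 3277, 3460.0 and 4045 in SKO SPG, and *Psmc5* had 5837, 4900.1 and 4586 in WT SPG and 5626, 5664 and 6303 in SKO SPG. None of these 3 passed in SPG, with adjusted p of 0.09, 0.683 and 0.386. In PreL, *Psmc1* had 7593, 7939.9 and 5458 in WT PreL and 6220.4, 6671 and 5825 in SKO PreL, and *Psmc2* had 5759, 5538 and 5449.6 in WT PreL and 5812, 5364 and 5937 in SKO PreL. *Psmc3* had 7567, 7822 and 6500.1 in WT PreL and 6226, 6403 and 6939 in SKO PreL, and *Psmc4* had 4109, 2801 and 2601 in WT PreL and 4015, 4056 and 4479 in SKO PreL. For *Psmc5* the PreL values were 4808, 4028 and 3640.4 in WT PreL and 3712, 3457 and 4174 in SKO PreL, and for all 6 ATPases the genotypes overlapped in PreL with log2 fold changes from -0.15 to 0.43.

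**Figure D4:**
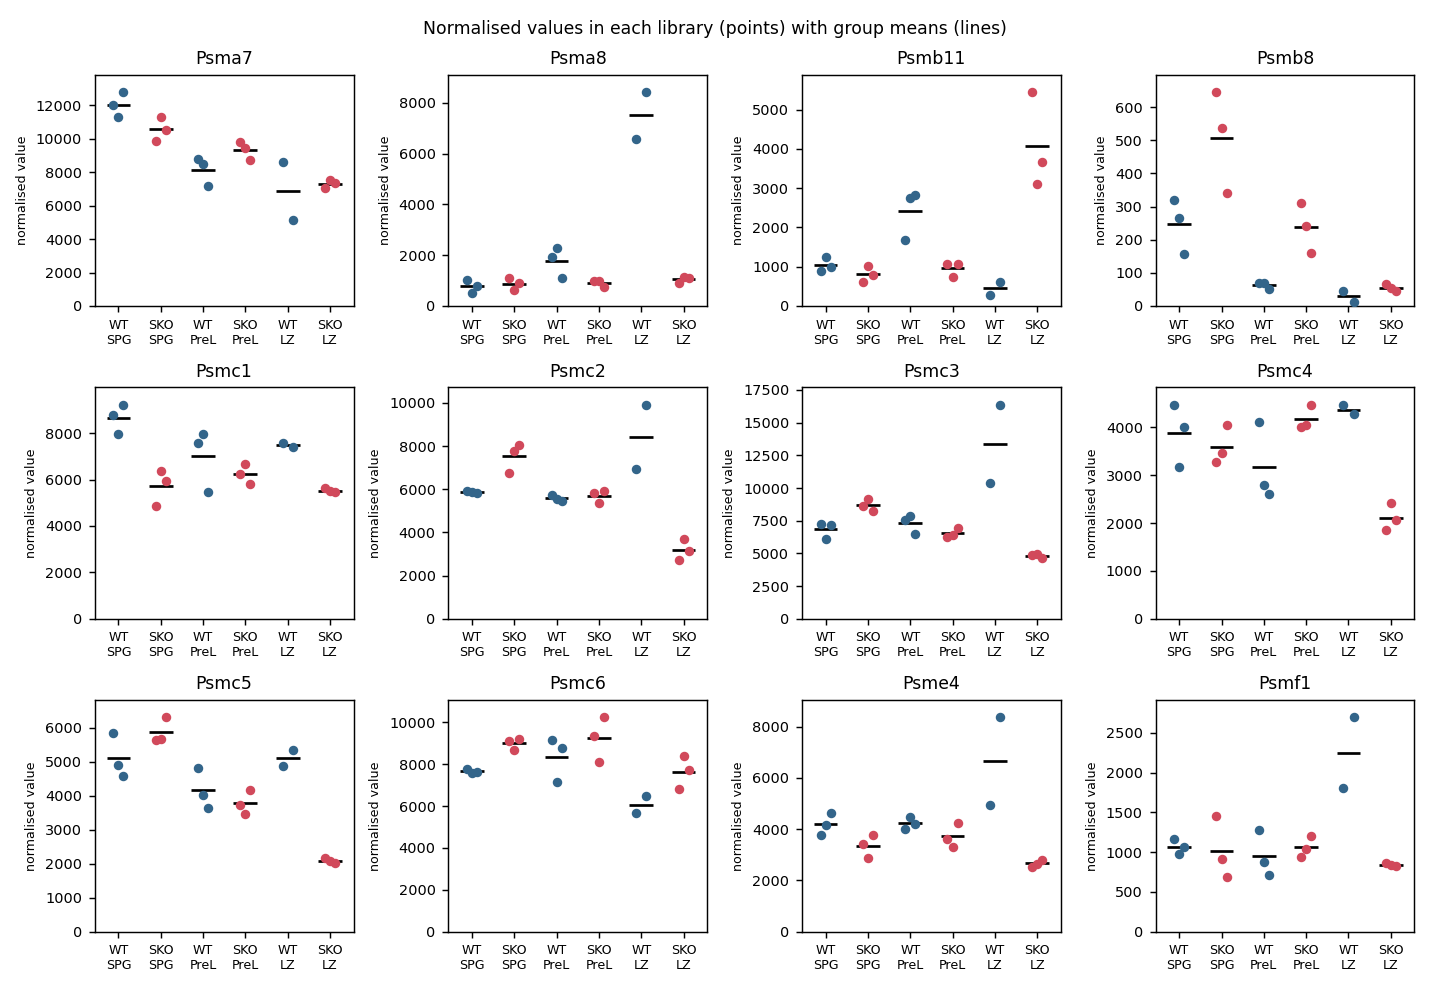
Normalised value (vertical axes, from 0) of 12 proteasome genes in each of the 17 libraries (points), with group means as lines. In LZ, *Psma8*, *Psmc1*, *Psmc2*, *Psmc3*, *Psmc4*, *Psmc5*, *Psme4* and *Psmf1* lie lower in every SKO library than in both WT libraries, *Psmb11* lies higher, and the WT and SKO points of *Psma7* overlap.

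Of the 11 other subunits of the regulatory particle, *Psmd4* and *Psmd8* were called lower in SKO LZ. *Psmd4* encodes a ubiquitin receptor and had 4906 and 5591 in WT LZ and 2257, 3051 and 2436 in SKO LZ, a log2 fold change of -1.05 (SE 0.18, adjusted p = 0.00232). *Psmd8*, a subunit of the lid, had 5131 and 8189 in WT LZ and 2590.1, 2675 and 2369 in SKO LZ, a log2 fold change of -1.36 (SE 0.22, adjusted p = 0.0018). Neither overlapped between the genotypes. Another 4, the scaffold subunit *Psmd2* and the lid subunits *Psmd7*, *Psmd11* and *Psmd12*, passed the adjusted p alone, with log2 fold changes from -0.77 to -0.64. The remaining 5 lay from -0.39 for *Psmd14*, the enzyme that removes ubiquitin, to 0.34 for *Psmd3*. *Psmd4* lay near the fold threshold and was not called without WT LZ replicate 3 (-0.95) or SKO LZ replicate 1 (-0.95), by edgeR (-0.98) or by DESeq2 (-0.998).

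*Psmd7*, *Psmd3* and *Psmd13* were among the larger differences in other stages. *Psmd7* had 1991, 1879 and 2167 in WT SPG, 1762, 2153 and 1331 in WT PreL and 4306 and 3840.2 in WT LZ. The SKO values were 2138, 2066 and 2435 in SKO SPG, 2795, 3165 and 2270.3 in SKO PreL and 2333, 2742 and 2201 in SKO LZ. It was thus above WT in every SKO PreL library and below WT in every SKO LZ library, at 0.67 (SE 0.20, adjusted p = 0.0434) and -0.77 (SE 0.16, adjusted p = 0.00567), and the difference between these effects was -1.41 (SE 0.25, adjusted p = 0.000208). *Psmd3* had 954, 842 and 814 in WT SPG and 569, 616 and 539.6 in SKO SPG, 799, 882 and 601 in WT PreL and 552, 752 and 624 in SKO PreL, and 927 and 1088 in WT LZ and 1716, 1066 and 1169.9 in SKO LZ. In SPG every SKO value of *Psmd3* lay below every WT value, with an adjusted p of 0.0741. *Psmd13* had 645, 517 and 896 in WT SPG, 693, 663 and 636 in WT PreL and 639 and 663 in WT LZ. In SKO its values were 547, 852 and 757 in SKO SPG, 302, 447 and 450.4 in SKO PreL and 738, 636 and 570.3 in SKO LZ, lower than WT in every PreL library at -0.73 (SE 0.21, adjusted p = 0.0392). This value of *Psmd13* was -0.02 (adjusted p = 0.952) on ERCC-calibrated values without rescaling, and it missed the adjusted p when any PreL library but SKO PreL replicate 3 was left out. The PreL difference of *Psmd7* missed it in 7 of 17 alternatives, namely with pseudocount 1, with no filter, by edgeR, and without WT PreL replicate 1 or 4 or SKO PreL replicate 1 or 2.

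Promoter sequence was looked at for the genes called lower in LZ, as the genes called in the same direction. RefSeq entries with 250 bases before and 50 after the start were at hand for 37 of the 44 genes, among them 7 of the 9 called lower. The 130 bases before the start of 4 of these are shown, because they hold a motif that proteasome promoters carried more often than all promoters did. Capitals mark CCGGAAG, the core of sites for ETS factors, or the NRF1 motif, on either strand. All are given 5′ to 3′ in the direction of the gene in build GRCm38.p6.
*Psmc2*, chr5:21785145-21785274, plus strand: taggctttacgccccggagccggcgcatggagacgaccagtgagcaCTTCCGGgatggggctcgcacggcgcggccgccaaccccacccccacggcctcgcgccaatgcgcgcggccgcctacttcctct
*Psmc5*, chr11:106256055-106256184, plus strand: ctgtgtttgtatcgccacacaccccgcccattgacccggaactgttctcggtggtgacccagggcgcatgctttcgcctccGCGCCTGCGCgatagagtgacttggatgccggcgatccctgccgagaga
*Psmd4*, chr3:95042615-95042744, minus strand: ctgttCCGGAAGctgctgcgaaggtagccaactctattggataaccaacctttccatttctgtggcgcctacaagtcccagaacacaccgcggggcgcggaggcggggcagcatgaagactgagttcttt
*Psme4*, chr11:30771645-30771774, plus strand: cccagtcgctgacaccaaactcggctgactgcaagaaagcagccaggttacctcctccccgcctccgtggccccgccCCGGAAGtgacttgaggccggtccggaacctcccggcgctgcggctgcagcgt

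CCGGAAG or its complement was in the promoters of 12 of the 37 proteasome genes (32.4%) and of 9.93% of all 27025 promoters. The NRF1 motif was in 6 (16.2%) and in 5.19% of all. Of the 7 called lower in SKO LZ, 3 held the first motif (*Psmc2*, *Psmd4* and *Psme4*) and 2 the second (*Psmc4* and *Psmc5*). CCAAT was in 14 of the 37 (37.8%) and in 41.1% of all promoters. TGANTCAGC (N is any base), a form of the element that NFE2L1 binds, was in 1, *Psmb5*, and in 1.37% of all, and its looser form TGANNNNGC, which includes it, was in 21 (56.8%) and in 45% of all. TGACGTCA was in 0 and in 2.03% of all. These are matches of letters in a window and say nothing of binding.

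None of the core subunits with constant roles was called in LZ on the rescaled values. With length and GC trends removed, *Psma5*, *Psmb2* and *Psmb5* were called higher in SKO LZ. In SPG, *Psma1*, *Psma5*, *Psmb1* and *Psmb3* were lower in SKO and *Psmb6* was higher by the adjusted p alone. In LZ the log2 fold changes of the 7 alpha subunits ran from -0.14 to 0.64, and *Psma4* alone passed the adjusted p (0.0127). The 7 beta subunits ran from -0.44 to 0.38, with *Psmb7* alone past the adjusted p. *Psmb5*, which has the chymotrypsin-like site, had 4319.8, 4152 and 4004 in WT SPG, 3903, 3599 and 3384 in WT PreL and 4441 and 4312 in WT LZ. The SKO values were 3981, 3473 and 3984 in SKO SPG, 3579.9, 3607 and 3189 in SKO PreL and 3999.9, 4003 and 3812 in SKO LZ. *Psmb5* kept all 17 values between 3189 and 4441.

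*Psmb6*, with the caspase-like site, had 12763, 11496 and 14009 in WT SPG and 15351, 18174 and 17532 in SKO SPG. In PreL it had 12019, 11940.0 and 8437 in WT PreL and 15801, 14448 and 18129.9 in SKO PreL, and in LZ 12951 and 14829.6 in WT LZ and 10890.4, 13789.7 and 13691 in SKO LZ. Every SKO library lay above every WT library in SPG and in PreL, at 0.40 (SE 0.12, adjusted p = 0.044) and 0.60 (SE 0.16, adjusted p = 0.0352), while the genotypes overlapped in LZ. The SPG difference of *Psmb6* missed the adjusted p in 12 of 17 alternatives, among them edgeR and leaving out any 1 library, and was 0.13 (adjusted p = 0.674) on ERCC-calibrated values without rescaling. The PreL difference missed it in 6 of 17, namely with no filter, with the replicate block, and without WT PreL replicate 2 or 4 or SKO PreL replicate 1 or 3. The difference between the LZ and PreL effects was -0.71 (SE 0.23, adjusted p = 0.0175), and missed the adjusted p by edgeR (0.0645), with the replicate block (0.0617), without WT PreL replicate 4 or WT LZ replicate 3, and with length and GC trends removed (-0.25, adjusted p = 0.405). *Psmb7*, with the trypsin-like site, had 7802, 8141 and 8916 in WT SPG, 6632, 7981 and 7233 in WT PreL and 7259.5 and 7890.2 in WT LZ. In SKO its values were 5459, 7728 and 5128 in SKO SPG, 5784, 6667 and 6945 in SKO PreL and 5529.9, 6021 and 5426 in SKO LZ, lower than both WT libraries in LZ. *Psmb5*, *Psmb6* and *Psmb7* have named pseudogenes, and reads could be split between copies. *Psmb3*, a structural beta subunit, had 5719, 5009 and 5754 in WT SPG and 3197, 3563 and 3363 in SKO SPG, a log2 fold change of -0.71 (SE 0.12, adjusted p = 0.00288). Its values were 6668, 5057 and 4336 in WT PreL and 4742, 5466 and 3550.2 in SKO PreL and 6835 and 4769 in WT LZ and 6568, 8074 and 8051 in SKO LZ, so the lower SKO level of SPG was not seen in LZ.

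Among the activators *Psme4* was called lower in SKO LZ and *Psme1* and *Psme2* lay higher. *Psme4* encodes PA200, which acts on acetylated histones in germ cells. It had 3759.8, 4181 and 4629 in WT SPG, 4013, 4487 and 4219 in WT PreL and 4942 and 8364 in WT LZ. In SKO it had 3404, 2858 and 3765 in SKO SPG, 3616, 3295 and 4251 in SKO PreL and 2535, 2661 and 2805 in SKO LZ. The genotypes overlapped in SPG and PreL and did not overlap in LZ, where the log2 fold change was -1.28 (SE 0.24, adjusted p = 0.00319). *Psmf1* encodes PI31, an inhibitor of the core in vitro, and had 1162, 975 and 1062 in WT SPG, 1280.4, 871 and 713 in WT PreL and 1811 and 2693 in WT LZ. In SKO it had 1459, 915 and 685 in SKO SPG, 941, 1037 and 1209 in SKO PreL and 863, 838 and 822 in SKO LZ, again apart in LZ alone, with a log2 fold change of -1.40 (SE 0.21, adjusted p = 0.00135). Without WT LZ replicate 3, *Psme4* was at -0.91 and not called. Both were still called with length and GC trends removed, at -1.44 for *Psme4* and -1.37 for *Psmf1*.

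*Psme1* and *Psme2* form the PA28 cap that interferon induces. *Psme1* had 1884, 2271 and 1971 in WT SPG, 1644, 1508 and 1414 in WT PreL and 1559 and 1060.3 in WT LZ. The SKO values were 1953, 1827 and 1421 in SKO SPG, 1782, 2164 and 1469 in SKO PreL and 2432, 2277 and 2264 in SKO LZ, overlapping with WT in SPG and PreL and above it in LZ. *Psme2* had 5039.8, 5693 and 5143 in WT SPG, 3676, 3906 and 3735 in WT PreL and 4368 and 2356 in WT LZ. Its SKO values were 3044, 3824 and 3593 in SKO SPG, 4315, 5063 and 2839 in SKO PreL and 5901, 7029.8 and 5870.5 in SKO LZ. It was lower than WT in every SKO SPG library at -0.62 (SE 0.13, adjusted p = 0.00863) and higher in every SKO LZ library at 0.94 (SE 0.25, adjusted p = 0.0166). *Psme1* in LZ was at 0.84 (SE 0.19, adjusted p = 0.00891). Both were past the adjusted p and short of the fold threshold, and without WT LZ replicate 2 both were called, at 1.07 for *Psme1* and 1.34 for *Psme2*. *Psme2* missed the adjusted p without WT LZ replicate 3 (0.069) or SKO LZ replicate 2. *Psme3*, the nuclear activator PA28 gamma, had 2071, 2232 and 2341 in WT SPG, 3042, 3129 and 2886 in WT PreL and 3132 and 2412 in WT LZ. Its SKO values were 2518, 2333 and 1808 in SKO SPG, 2312, 2579 and 2515 in SKO PreL and 3011, 3076 and 2994 in SKO LZ. Its genotypes overlapped in SPG and LZ, and the adjusted p in PreL was 0.121.

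*Psmb11* was the gene called higher in SKO LZ, and its genotype difference had opposite signs in PreL and LZ. It encodes a catalytic subunit known from cortical cells of the thymus. In SPG it had 886, 1239.6 and 984 in WT SPG and 603, 1026 and 801 in SKO SPG. In PreL it had 1689.9, 2752 and 2838 in WT PreL and 1062, 743 and 1064 in SKO PreL, and in LZ 281 and 611 in WT LZ and 5459, 3115 and 3665 in SKO LZ. SKO lay below WT in every PreL library and above WT in every LZ library, by a factor of 9.15 between the LZ means. The log2 fold changes were -1.31 (SE 0.23, adjusted p = 0.0056) in PreL and 3.23 (SE 0.37, adjusted p = 0.000338) in LZ, and their difference was 4.54 (SE 0.42, adjusted p = 1.05e-07). Without rescaling of the ERCC-calibrated values the PreL call was lost (-0.59, adjusted p = 0.0615 by limma). Within WT it rose from SPG to PreL by 1.16 (SE 0.22, adjusted p = 0.0139) and fell from PreL to LZ with a log2 fold change of -2.62 (SE 0.36, adjusted p = 0.00252), and within SKO it rose from PreL to LZ by 2.03 (SE 0.23, adjusted p = 0.000278). Per kilobase it stayed low beside the constitutive *Psmb5*, at 961 ± 289 in SKO LZ against 4381 ± 122. The table gives 1 value per gene, so where in *Psmb11* the reads lie was not analysed here.

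The immune subunits were low in all groups. *Psmb8* had 320.0, 267 and 158 in WT SPG and 647, 538 and 339.9 in SKO SPG. In PreL it had 69.9, 68.6 and 50.4 in WT PreL and 312, 241 and 161 in SKO PreL, and in LZ 45.2 and 13.0 in WT LZ and 65.6, 53.3 and 46.1 in SKO LZ. Every SKO library lay above every WT library of its stage, and the difference was called in PreL, at 1.72 (SE 0.34, adjusted p = 0.0102), with 0.98 (SE 0.34, adjusted p = 0.0825) in SPG and 0.98 (SE 0.54, adjusted p = 0.166) in LZ. Without SKO PreL replicate 1 the PreL call was lost (adjusted p = 0.0701). In LZ the order of the genotypes rests on few reads, 32 and 7 in WT LZ and 12, 15 and 11 in SKO LZ, with 46.1 against 45.2 normalised units where closest. *Psmb10* had 422, 322 and 503 in WT SPG and 703, 600.1 and 536 in SKO SPG, 382, 354 and 269.7 in WT PreL and 465, 526 and 454 in SKO PreL, and 442 and 214 in WT LZ and 541, 568 and 520.0 in SKO LZ. It too was higher in every SKO library of each stage, with adjusted p of 0.199, 0.114 and 0.0757, none of which passed.

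*Psmb9* was near the limit of detection, with 31.4, 33.1 and 1.80 in WT SPG, 19.98, 0 and 13.2 in WT PreL and 50.8 and 22.3 in WT LZ. In SKO it had 58.3, 33.5 and 33.3 in SKO SPG, 104, 48.1 and 8.15 in SKO PreL and 16.4, 32.0 and 16.8 in SKO LZ. Every SKO value was above every WT value in SPG, by as little as 33.3 against 33.1, and the genotypes overlapped in PreL and LZ. A count of 0, as in WT PreL replicate 2, allows up to 3 reads there, 6.43 normalised units. Without molecular identifiers, copies made by PCR count as separate reads, so this limit covers counting error only. Together *Psmb8*, *Psmb9* and *Psmb10* made 1.72% ± 0.181 of the catalytic subunits per kilobase in WT SPG and 2.58% ± 0.667 in SKO SPG, 1.25% ± 0.104 and 1.85% ± 0.409 in PreL (SD, n = 3 each), and 1.03% ± 0.586 (n = 2) and 1.81% ± 0.173 (n = 3) in LZ. Every SKO share exceeded every WT share of its stage, and the exact permutation test (two-sided) gave p = 0.1 in each stage, the smallest possible, or 0.12 after adjustment over the 6 share tests. The share of *Psmb8* in *Psmb5* plus *Psmb8* was 0.816% to 1.04% in WT PreL and 2.71% to 4.59% in SKO PreL. That of *Psmb10* in *Psmb7* plus *Psmb10* was 2.34% to 5.11% in WT LZ and 7.71% to 7.97% in SKO LZ.

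Summed markers of immune cells and of the interferon response were higher in SKO in some stages and lists and overlapped in others. In SKO PreL the 8 macrophage and antigen presenting markers summed to 823 to 2094 against 386 to 866 in WT PreL, and the groups overlapped. In LZ they summed to 268 to 824 against 35.3 to 228. The 5 T and NK markers were higher as a sum in every SKO library in SPG and PreL. In LZ they overlapped, with 92.4 to 126 in SKO and 76.1 to 155 in WT. The 10 interferon-stimulated genes, among them *B2m*, summed to 4804 to 7383 in SKO PreL against 2087 to 2283 in WT PreL, to 5613 to 9141 against 2319 to 3328 in SPG and to 5524 to 6017 against 3898 to 4246 in LZ. Of the interferon-stimulated genes, 2 of 9 tested were called higher in SPG, 5 of 9 in PreL and 1 of 6 in LZ, beside 3.95%, 5.34% and 13.4% of all genes. The part of these markers in the immune subunit values was not tested. Exons of *Psmb8* overlap an antisense gene, *Gm20496*, and those of *Psmb9* overlap *Tap1*, so these counts may include reads of the other gene.

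In SPG no proteasome gene was called between the genotypes by limma, beside 2.07% of 12846 genes called lower and 3.95% called higher. edgeR and DESeq2 also called 0. An unadjusted p under 0.05 was seen for 18 of the 44, and the share of all genes at that cut is not given here. By the adjusted p alone 8 were lower (*Psma1*, *Psma5*, *Psmb1*, *Psmb3*, *Psmc1*, *Psmd2*, *Psmd8* and *Psme2*) and 1 was higher (*Psmb6*), that is 18.2% and 2.27% of 44, beside 4.85% and 6.22% of all genes. The 8 lay between -0.71 and -0.42 on the log2 scale. The number lower by the adjusted p was 12 without rescaling but 2 without WT SPG replicate 3, 4 without SKO SPG replicate 1, 5 without SKO SPG replicate 4 and 4 with no filter. The median of the 44 genes was -0.13, beside 0.00 over all genes. In PreL, *Psmb11* was called lower and *Psmb8* higher, beside 5.83% of 13132 genes lower and 5.34% higher. By the adjusted p alone 3 were lower (*Psma8*, *Psmb11* and *Psmd13*) and 3 higher (*Psmb6*, *Psmb8* and *Psmd7*), beside 10% and 7.89% of all genes.

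The step from PreL to LZ was measured within each genotype. The 8 Sertoli markers summed to 1388 to 1496 in WT PreL and 6442 to 24512 in WT LZ, and all 7 tested were called higher. In SKO they summed to 1361 to 17825 in PreL and 11812 to 15331 in LZ, with 0 called. All 8 late spermatocyte markers were called higher in WT, and 2 of 5 tested in SKO. The part of these markers in the steps was not tested. In WT, from PreL to LZ, *Psma8*, *Psmd7* and *Psmf1* rose and *Psmb11* fell, beside 18.8% of 13759 genes higher and 7.8% lower. In SKO, *Psmb8*, *Psmc4* and *Psmd5* fell and *Psmb11* rose over the same step, beside 6.93% of 12477 genes lower and 10.6% higher. By the adjusted p alone 4 were lower and 5 higher in WT, beside 14.2% and 20.5% of all genes, and 12 lower and 7 higher in SKO, beside 19.1% and 17.8%. *Psmd7* rose in WT by 1.10 (SE 0.24, adjusted p = 0.00868), and its SKO step was -0.20 (SE 0.14, adjusted p = 0.275). *Psmf1* rose in WT by 1.10 (SE 0.29, adjusted p = 0.0197), and its SKO step was -0.36 (SE 0.15, adjusted p = 0.0867). *Psmc4* had a WT step of 0.35 (SE 0.23, adjusted p = 0.254) and fell in SKO with a log2 fold change of -1.02 (SE 0.13, adjusted p = 0.000563). Among genes with an LZ difference, *Psma8*, *Psmd7* and *Psmf1* thus had a called rise in WT, and *Psmc4* a called fall in SKO. Leaving out single libraries ended some of these calls. *Psmd7* lost its call without WT LZ replicate 2 (0.99) or WT PreL replicate 4 (0.88). *Psmf1* lost it without WT LZ replicate 3 (0.83), WT PreL replicate 2 (1.05) or WT PreL replicate 4 (0.88). *Psmc4* lost it without SKO PreL replicate 3 (-0.95) or SKO LZ replicate 1 (-0.94), and *Psmd5* without SKO LZ replicate 1 (-0.88).

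*Psmd5*, a chaperone of ATPase assembly, had 6798, 6079 and 5400.1 in WT SPG, 5371, 3384 and 4439 in WT PreL and 3022 and 2635 in WT LZ. In SKO it had 5264, 5153 and 6827 in SKO SPG, 5623, 5744 and 6051 in SKO PreL and 2224, 3233 and 3204 in SKO LZ. It was lowest in LZ in both genotypes, with steps from PreL of -0.76 (SE 0.23, adjusted p = 0.0329) in WT and -1.06 (SE 0.16, adjusted p = 0.00115) in SKO, and did not differ between genotypes beyond its error in LZ (log2 fold change -0.0033, adjusted p = 0.991). The other chaperones, *Psmd9* and *Psmd10*, were at -0.26 and 0.64 in LZ, and *Psmd10* passed the adjusted p alone. From SPG to PreL, 43 of the 44 genes were tested in WT, which had *Psma8* and *Psmb11* higher and *Psmb8* lower, beside 2.54% of 12657 genes higher and 1.21% lower. By the adjusted p alone 3 were lower and 2 higher, beside 3.02% and 4.27% of all genes. Without WT SPG replicate 3 or WT PreL replicate 2 none of these 3 was called. *Psma8* also lost its call without WT SPG replicate 2 or WT PreL replicate 1, and *Psmb8* without WT SPG replicate 1 or 2 or WT PreL replicate 4. SKO had 0 calls for this step by limma and by edgeR and 1 by DESeq2, beside 0.947% of 12882 genes lower and 1.62% higher by limma. An unadjusted p under 0.05 was seen for 8 of the 44, with no share of all genes given at that cut. By the adjusted p alone 1 was lower, *Psmc5*, and 0 higher, beside 2.65% and 2.93% of all genes.

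**Figure D5:**
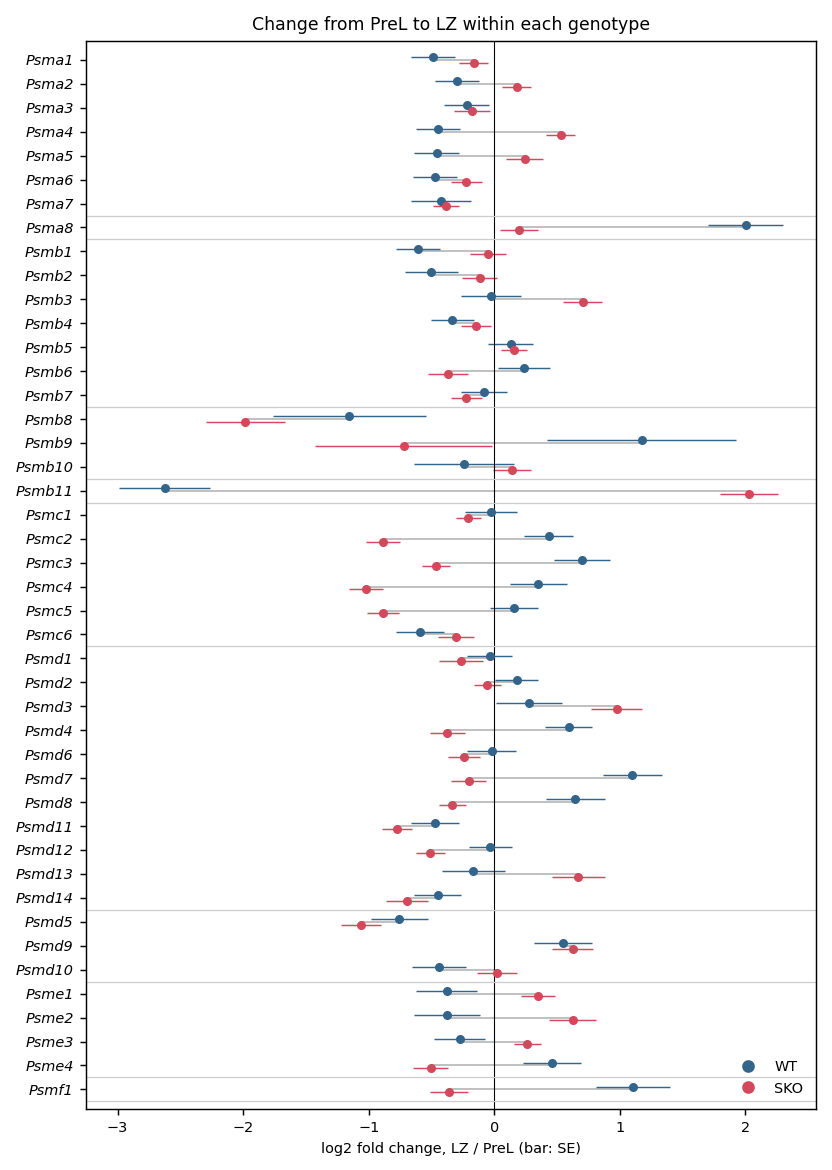
Log2 fold change from PreL to LZ (horizontal axis, bars are standard errors) within WT (blue) and within SKO (red) for each proteasome gene, grouped by role. *Psma8* lies at 2.001 in WT and 0.20 in SKO, and *Psmb11* at -2.62 in WT and 2.03 in SKO.

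These steps were measured on values rescaled to the typical gene. On the ERCC-calibrated values without rescaling, the median of all genes moved by 1.86 from PreL to LZ in WT, 42 of the 44 proteasome genes were called higher in that step beside 79.9% of all genes, the fall of *Psmb11* was lost (-0.81, adjusted p = 0.0629 by limma), and *Psmb1*, *Psmc6* and *Psmd5* turned from below to above 0. In SKO that scale ended the falls of *Psmc4* (-0.17) and *Psmd5* (-0.21) over the same step. For SKO LZ against WT LZ that scale gave the same numbers, 9 lower and 1 higher. The genotype effect in LZ differed from that in PreL by the interaction term for 17 of the 44 genes (adjusted p under 0.05 with no fold threshold), 12 more negative and 5 more positive, beside 23.1% and 15.1% of 13530 genes. These 17 are 27.3% and 11.4% of 44. On the ERCC scale 29 and 1 differed, beside 48.6% and 5.54% of all genes, and the share of all differing genes that were more negative was 89.8%, beside 60.5% after rescaling and 48.3% by edgeR. Between PreL and SPG 0 of the 44 differed by limma and by edgeR and 1 by DESeq2, beside 0.111% and 0.251% of all genes by limma. An unadjusted p under 0.05 was seen for 10 of the 44, with no share of all genes given at that cut.

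Genes that work with the proteasome gave the following counts in LZ. Over all genes tested in LZ, 25.8% were called lower and 13.4% higher, beside which the counts of all 4 lists stand. Of 22 assembly and proteasome-associated factors, 21 were tested, 3 were called lower and 2 higher. *Ubqln2*, which carries ubiquitinated proteins to the proteasome, rose by 2.06 (SE 0.20, adjusted p = 0.000152). *Fbxo7*, which binds *Psmf1* protein, was at -1.32 (SE 0.19, adjusted p = 0.000912), and *Psmg3*, an assembly chaperone of the alpha ring, at -1.05 (SE 0.31, adjusted p = 0.0242). Of 6 ubiquitin and ubiquitin-activating genes and of 8 genes for p97 and its cofactors 0 were called, with 3 of each past the adjusted p alone. By the adjusted p alone 31.1% of all genes were lower and 19.8% higher. Of 5 tested genes around NFE2L1, the factor that raises proteasome genes when the proteasome is blocked, *Bach1* at 2.03 (SE 0.40, adjusted p = 0.00435) and *Nfe2l2* at 1.25 (SE 0.18, adjusted p = 0.000973) were called higher and *Ngly1* at -1.06 (SE 0.33, adjusted p = 0.0302) lower. In PreL, *Ubqln2* was called higher at 1.10 (SE 0.30, adjusted p = 0.036) and *Zfand2a* lower at -1.16 (SE 0.26, adjusted p = 0.0159), beside 5.34% of all genes higher and 5.83% lower. In SPG 0 genes of these 4 lists were called, with 4 past the adjusted p alone, beside 4.85% of all genes lower and 6.22% higher by the adjusted p alone.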

How the data were processed

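RNA of 17 libraries of sorted testis cells (6 groups of genotype and stage) had been prepared by Smart-seq2 with ERCC spike-in and sequenced without strand information. The tools named in the submitters' processing notes are TopHat2 2.1.1, Cufflinks 2.2.1, HTSeq 0.11.2 and DESeq2, with build mm10 in the methods. The deposited signal values are gene counts that the authors multiplied by a calibration factor per library from the ERCC spike-in. In each library 100% of values were whole multiples of 1 read within 0.01 read, so whole reads were recovered. The authors' counts totalled 5812380 to 13820953 reads per library, and 0 columns belonged to other samples. Values were rescaled by median-of-ratios size factors and tested with limma 3.58.1 (trend) in R 4.3.3 on log2(value + 10), for genes averaging 10 reads or more, with Benjamini-Hochberg adjustment over all genes tested, so fold changes of low genes are understated. Calls needed an adjusted p below 0.05 and a log2 fold change beyond 1 in size. Levels were divided by the length of the principal transcript where genes are compared. Length and GC content were matched for 97.9% of symbols. Shares were compared by exact permutation. Alternatives were TMM scaling, no rescaling, other pseudocounts and filters, edgeR 4.0.16 and DESeq2 1.42.0 on the recovered reads, a replicate block, calls with no fold threshold, 1 joint fit and leaving out each library, and, chosen after seeing the data, removed length and GC trends and exon union length. On simulated data the comparison of LZ recovered 189 of 200 changed genes with 5 false calls. The interaction between LZ and PreL recovered 146 of 200 with 13 false calls. The simulation used 1 dispersion for all genes and changed equal numbers up and down. In the LZ data 25.8% of genes were called lower and 13.4% higher, so these rates need not hold there. Replicate libraries differed by more than sampling noise. Per-library values are given for *Psma7*, *Psma8*, *Psmb5* to *Psmb10*, the activators, *Psmf1* and the 3 other genes with the largest change in each comparison, other genes by range or where a result turns on them. The genes, lists and tests were chosen with earlier results of these data known. Values of some single genes of the lists are not reported here.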

Additional observations from a re-analysis of the deposited data

Results flagged for a closer look

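For 17 proteasome genes the genotype effect in LZ differed from that in PreL by an interaction term (limma, adjusted p under 0.05 over all genes). More negative in LZ were *Psma8* by -1.91 (adjusted p = 0.00124), *Psmb6* by -0.71 (adjusted p = 0.0175), *Psmc2* by -1.43 (adjusted p = 2.46e-05), *Psmc3* by -1.27 (adjusted p = 0.000133), *Psmc4* by -1.48 (adjusted p = 0.000135), *Psmc5* by -1.15 (adjusted p = 0.000134) and *Psmd4* by -1.07 (adjusted p = 0.00141) on the log2 scale. So were *Psmd7* by -1.41 (adjusted p = 0.000208), *Psmd8* by -1.09 (adjusted p = 0.00138), *Psmd12* by -0.59 (adjusted p = 0.0118), *Psme4* by -1.07 (adjusted p = 0.00214) and *Psmf1* by -1.57 (adjusted p = 0.00225). More positive in LZ were *Psma4* by 0.87 (adjusted p = 0.000859), *Psma5* by 0.59 (adjusted p = 0.029), *Psmb1* by 0.45 (adjusted p = 0.04997), *Psmb11* by 4.54 (adjusted p = 1.05e-07) and *Psme2* by 0.89 (adjusted p = 0.025). Of these, *Psme2* was at 0.018 (adjusted p = 0.973) on ERCC-calibrated values without rescaling and missed the adjusted p in 4 further alternatives. With the sign kept, *Psmb1* missed it in 11 of 21, *Psma5* in 6, *Psmb6* in 5 and *Psmd12* in 1. Beside these, *Psma4*, *Psma5* and *Psmb1* changed sign on ERCC-calibrated values without rescaling and missed it there too (adjusted p = 0.990, 0.456 and 0.153).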

How the results depend on the processing

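All 10 calls between the genotypes in LZ kept their direction and an adjusted p under 0.05 in every alternative run, though some fell short of the fold threshold. Over all named fold changes, 1298 of 1542 alternative values kept direction and side of the adjusted p of 0.05, 229 lost that adjusted p and 15 reversed. Without the fold threshold, genes called lower and higher were 8 and 1 in SPG, 3 and 3 in PreL and 15 and 5 in LZ between genotypes. For WT steps they were 3 lower from SPG to PreL and 4 and 5 from PreL to LZ, and for SKO steps 1 lower and then 12 and 7. With the fold threshold kept, ERCC-calibrated values without rescaling gave 0 lower and 7 higher in PreL between genotypes, 0 and 42 from PreL to LZ in WT, 28 higher from SPG to PreL in SKO and 1 and 13 from PreL to LZ in SKO. The shares of all genes were, in the same order, 4.45% and 26.3%, 0.109% and 79.9%, 43.9%, and 1.22% and 35.3%. That scale gave 29 more negative and 1 more positive effects in LZ than in PreL, and 38 more positive in PreL than in SPG, beside 48.6%, 5.54% and 43.9% of all genes. It reversed *Psmb1* (1.23), *Psmc6* (1.24) and *Psmd5* (1.07) from PreL to LZ in WT, and *Psmc5* (0.42) from SPG to PreL in SKO. From PreL to LZ in SKO it reversed *Psma7* (0.47), *Psmc3* (0.38), *Psmd11* (0.075), *Psmd12* (0.34), *Psmd14* (0.16), *Psmd8* (0.51) and *Psme4* (0.34), and in the interaction *Psma4* (-0.0043), *Psma5* (-0.28) and *Psmb1* (-0.42). With length and GC trends removed, 5 were lower and 8 higher in LZ between genotypes, and *Psmc1* reversed to 0.071. From PreL to LZ 5 were then lower in WT and 1 in SKO, and 16 effects were more positive in LZ. The shares of all genes were, in the same order, 23.4% and 17%, 11.3%, 6.78% and 17.2%. Without a filter, 0 were lower and 0 higher from SPG to PreL in WT, and 3 effects were more positive in LZ. From SPG to PreL in WT, 1 was higher with pseudocount 1 and by edgeR, beside 238 of 12657 genes by edgeR. From PreL to LZ in SKO, 2 were higher by edgeR, DESeq2 and 1 fit of all libraries. Of 12477 genes, edgeR called 1295 higher there and DESeq2 1355. edgeR gave 8 more positive effects in LZ, beside 2279 of 13530 genes. DESeq2 gave 1 lower from SPG to PreL in SKO, beside 219 of 12882 genes. It gave 1 more negative effect in PreL, beside 190 of 13530. The cause was not tested.

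Replicate numbers did not pair the samples (correlations of deviations from -0.19 to 0.13). With the replicate block, 1 was higher in SPG, 2 lower and 2 higher in PreL, and 1 higher from SPG to PreL in WT. In LZ 7 were lower, where *Psmc4* (-0.99) and *Psmd4* (-0.96) fell short of the fold threshold. Among all genes the block gave 3.99% higher in SPG, 6.76% lower and 9.59% higher in PreL and 25.6% lower in LZ. It gave 3.41% higher from SPG to PreL in WT. The block could not be fitted from PreL to LZ in WT, where 1 number is shared.

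Leaving out each library gave 0 calls in SPG, 1 to 2 lower and 0 to 1 higher in PreL, and 7 to 9 lower and 1 to 5 higher in LZ between genotypes. WT gave 0 to 1 lower and 0 to 2 higher from SPG to PreL, and 1 lower and 1 to 3 higher from PreL to LZ. SKO gave 0 and then 1 to 3 lower and 1 to 2 higher, and 11 to 13 effects were more negative and 2 to 7 more positive in LZ. For these counts the shares of all genes are not given here. The genotype difference in the *Psma8* share was 0.302 to 1.70 points in SPG, -6.69 to -4.16 in PreL and -39.7 to -22.1 in LZ. That in the immune share was 0.490 to 1.13, 0.469 to 0.838 and 0.365 to 1.19 points. With 2 WT LZ libraries, a group left with 1 library was assumed to vary like the other group. Low counts limit *Psmb9* most.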
